A study of Mus musculus with 18 samples.

Results

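The simple keratins Krt7, Krt8, Krt18 and Krt19, the claudins Cldn4, Cldn6 and Cldn7, and the adhesion genes Epcam and Cdh1 are 9 of the 55471 genes counted in mouse embryonic stem cells with and without the kinase GCN2. The 9 genes were chosen by symbol, each as the row whose Ensembl identifier carries that symbol in GENCODE vM21. All 9 passed edgeR's filter on low counts in every fit that used it. The choice was made with earlier results of these data in view. The widest difference within the set lies between the genotypes, so the genotype values of the 9 genes are given as a description. Their calls in the genotype fit are listed once and are not read as a test.

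Simple keratins are the intermediate filament proteins of single-layered epithelia. A filament needs a type II keratin, here Krt7 or Krt8, paired with a type I keratin, here Krt18 or Krt19, and a keratin without a partner is degraded. Claudins are the membrane proteins that form the strands of tight junctions and set which ions pass between cells. Epcam is a membrane glycoprotein of epithelial and pluripotent cells that binds claudins, and Cdh1 encodes E-cadherin, the calcium-dependent adhesion molecule of adherens junctions that holds stem cell colonies together. In the early embryo, keratin filaments and tight junctions are marks of the outer layer, the trophectoderm.

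E14, an established mouse embryonic stem cell line, was the source of all 6 groups, with 3 libraries each. Gcn Leu, Gcn Arg and Gcn Unstarved cells were Eif2ak4-/-, labelled as a knock-out of GCN2, the eIF2α kinase that responds to uncharged tRNA. Wt Leu, Wt Arg and Wt Unstarved cells were wild type. Leu and Arg cells spent 3 h in SILAC medium lacking leucine or arginine, and Unstarved cells received that medium with every amino acid. All groups shared the medium's leukaemia inhibitory factor, dialyzed serum, lysine, glucose and GlutaMAX. The labels do not say whether the knock-out cells are 1 clone or whether the replicates came from separate cultures. Genotype and culture history cannot be told apart, and every p-value reflects the scatter of these libraries alone, part or all of which may be technical.

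Library totals ran from 14.8 to 38.8 M counts. Eif2ak4 itself stood at 4.04 to 6.37 CPM (counts scaled to a common library size with edgeR's TMM factors) in the 9 Gcn libraries and at 27.0 to 33.4 CPM in the 9 Wt libraries. The 13 embryonic stem cell markers, Pou5f1, Sox2 and Nanog among them, summed to 9048 to 10780 CPM in Gcn and 7790 to 9132 CPM in Wt, with none at 0. In unstarved Gcn cells, 4 of the 13 were called higher than in Wt, where 16.6% of all genes tested were. Only 1 was called lower, where 16.2% of all genes were. Nanog (0.85 log2) was among the higher, and the lower was Dppa3 (-1.15 log2). The first principal component, with 41.6% of the variance, parted the genotypes, and the next, with 20%, parted starved from unstarved libraries. A further component (7.1%) set off the Gcn libraries numbered 1, at -26.2 to -23.3 against 5.4 to 20.4 for the other Gcn libraries, so calls of the 9 genes within Gcn are given with and without them, and those of other named genes are counted without them at the end.

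On GRCm38, as annotated in GENCODE vM21, 3 of the keratin genes lie in the type II cluster on chromosome 15: Krt7 (ENSMUSG00000023039) at chr15:101411043-101430313 on the plus strand, Krt8 (ENSMUSG00000049382) at chr15:101996698-102004482 on the minus strand and Krt18 (ENSMUSG00000023043) at chr15:102028180-102032027 on the plus strand. The others are Krt19 (ENSMUSG00000020911) at chr11:100140810-100148665 on the minus strand, within the type I cluster, Cldn4 (ENSMUSG00000047501) at chr5:134945119-134946934 on the minus strand, Cldn6 (ENSMUSG00000023906) at chr17:23679249-23682446 on the plus strand and Cldn7 (ENSMUSG00000018569) at chr11:69964779-69967885 on the plus strand. The adhesion genes are Epcam (ENSMUSG00000045394) at chr17:87635979-87651129 on the plus strand and Cdh1 (ENSMUSG00000000303) at chr8:106603351-106670246 on the plus strand. Krt8 overlaps the lincRNA gene Gm36026 by 101 bp, and that gene held 0 to 2 counts a library.

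The promoters of 4 genes are shown here, because these genes carry the results that follow. Krt8 and Krt18 encode filament partners and are neighbours on chromosome 15, with 23.7 kb between them. Cldn4 and Cldn6 were called in opposite directions after starvation. The windows are RefSeq's, on GRCm38.p6, each from 250 bases before to 50 bases after the annotated start, printed 5′ to 3′ on the gene's strand. They lie at chr15:102004293-102004592 on the minus strand (Krt8), chr15:102027966-102028265 on the plus strand (Krt18), chr5:134946885-134947184 on the minus strand (Cldn4) and chr17:23679115-23679414 on the plus strand (Cldn6). Capitals mark every match, on either strand, to CAGGTG (an E-box of the kind that Snail and Zeb repressors bind), TGANTCA (AP-1), AACCGG (grainyhead), GGGCGG (a GC box) and TGATGCA (an amino acid response element core).
Krt8: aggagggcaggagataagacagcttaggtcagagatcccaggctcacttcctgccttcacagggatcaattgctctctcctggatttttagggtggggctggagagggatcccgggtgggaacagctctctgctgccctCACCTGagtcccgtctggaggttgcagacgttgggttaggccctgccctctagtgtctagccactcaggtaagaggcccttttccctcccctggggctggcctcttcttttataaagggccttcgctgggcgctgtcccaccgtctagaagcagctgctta
Krt18: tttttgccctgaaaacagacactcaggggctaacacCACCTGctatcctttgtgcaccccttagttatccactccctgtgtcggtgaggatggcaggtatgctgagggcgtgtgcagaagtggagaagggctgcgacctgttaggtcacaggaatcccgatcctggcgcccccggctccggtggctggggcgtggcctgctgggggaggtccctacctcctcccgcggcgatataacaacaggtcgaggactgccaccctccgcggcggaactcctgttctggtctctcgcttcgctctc
Cldn4: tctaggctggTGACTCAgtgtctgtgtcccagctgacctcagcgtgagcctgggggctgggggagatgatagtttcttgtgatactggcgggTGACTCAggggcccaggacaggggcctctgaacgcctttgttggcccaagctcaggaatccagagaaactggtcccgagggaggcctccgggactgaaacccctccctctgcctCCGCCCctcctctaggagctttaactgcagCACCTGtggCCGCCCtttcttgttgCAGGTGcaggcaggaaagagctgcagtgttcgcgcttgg
Cldn6: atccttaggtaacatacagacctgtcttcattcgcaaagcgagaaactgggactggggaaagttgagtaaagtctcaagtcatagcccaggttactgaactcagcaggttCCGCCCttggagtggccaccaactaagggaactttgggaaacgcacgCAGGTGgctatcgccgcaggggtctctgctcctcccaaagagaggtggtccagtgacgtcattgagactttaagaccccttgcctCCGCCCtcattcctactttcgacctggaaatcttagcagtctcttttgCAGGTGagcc

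In Krt8 and Krt18 the single marked stretch is CACCTG, the E-box read on the other strand. Cldn4 holds 2 E-boxes, 2 AP-1 matches and 2 GC boxes, and Cldn6 holds 2 E-boxes and 2 GC boxes. The table held windows for 7 of the 9 genes, and Krt19 and Cdh1 are named only. At least 1 E-box match was present for 7 of those 7 genes, where 20.2% of the 32851 promoter windows in the table hold one. These counts are by gene and the shares by window. The 7 genes have 8 windows, as Cldn7 has 2, and its window at chr11:69964529-69964828 holds 0 matches to any motif. A GC box was present for 5 of 7 genes (35.7% of all windows), an AP-1 match for 1 (7.81%), a grainyhead match for 1 (6.83%) and the amino acid response core for 0 (3.15%). In Cldn7 the grainyhead and E-box matches are adjacent, without overlap. A match is only a run of letters and shows no binding.

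All 4 simple keratins were low in Gcn cells relative to Wt cells. Krt8, the widespread type II keratin of simple epithelia, had 9.63, 9.62 and 8.70 CPM in Gcn Unstarved and 113.9, 97.5 and 97.1 CPM in Wt Unstarved. Its partner Krt18 had 5.58, 4.70 and 5.15 CPM in Gcn Unstarved, against 74.7, 60.1 and 69.7 CPM in Wt Unstarved. The ranges of the genotypes were far apart for both partners, and the means were 11.04-fold lower in Gcn for Krt8 and 13.3-fold lower for Krt18.

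Krt19, a small type I keratin without the tail domain of the other keratins, had 1.57, 2.29 and 2.60 CPM in Gcn Unstarved and 40.2, 30.8 and 29.5 CPM in Wt Unstarved, a mean 15.6-fold lower in Gcn. Krt7, the other type II simple keratin, was the least abundant gene of the set. It had 0.697, 0.370 and 0.611 CPM in Gcn Unstarved, from 16, 10 and 16 counts, and 6.41, 6.93 and 8.25 CPM in Wt Unstarved, from 191, 168 and 177 counts. The Krt7 fold, 12.9 lower in Gcn, therefore rests on few counts in Gcn. Together the 4 keratins summed to 15.3 ± 1.5 CPM over the Gcn libraries and 204 ± 18.1 CPM over the Wt libraries (SD, n = 9 each).

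The claudins were lower in Gcn by smaller and less equal factors than the keratins. Cldn7, which binds EpCAM, had 1.00, 1.52 and 2.10 CPM in Gcn Unstarved and 12.3, 11.3 and 10.3 CPM in Wt Unstarved, a mean 7.34-fold lower. Cldn6, a claudin of embryonic epithelia and pluripotent cells, had 10.9, 11.4 and 11.9 CPM in Gcn Unstarved against 60.5, 60.8 and 58.7 CPM in Wt Unstarved, a mean 5.27-fold lower. Cldn4, a claudin that restricts sodium passage, had 56.2, 46.0 and 51.5 CPM in Gcn Unstarved and 121.3, 112.3 and 116.0 CPM in Wt Unstarved, so the most abundant of the 3 claudins stood 2.28-fold lower in Gcn.

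Epcam and Cdh1, the most abundant genes of the set, differed least. Epcam had 75.6, 88.1 and 87.6 CPM in Gcn Unstarved and 162.6, 162.4 and 171 CPM in Wt Unstarved, and its mean was 1.98-fold lower in Gcn. Cdh1 had 457, 459 and 444 CPM in Gcn Unstarved and 631, 665 and 678 CPM in Wt Unstarved, 1.45-fold lower in Gcn. The genotype ranges did not overlap for either adhesion gene.

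The Gcn level was also taken as a share of the Wt level within each treatment. Krt18 stood at 6.53% of Wt under leucine starvation, 6.88% under arginine starvation and 7.54% unstarved, and Krt19 at 6.77%, 6.12% and 6.43%. Krt7 stood at 7.49%, 7.13% and 7.77%, and Krt8 at 7.46%, 7.94% and 9.06%. For Cldn4 the share varied more, with 49.96% under leucine starvation, 32.4% under arginine starvation and 44.0% unstarved. Cdh1 stayed between 63.3% and 68.9%.

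**Figure D1:**
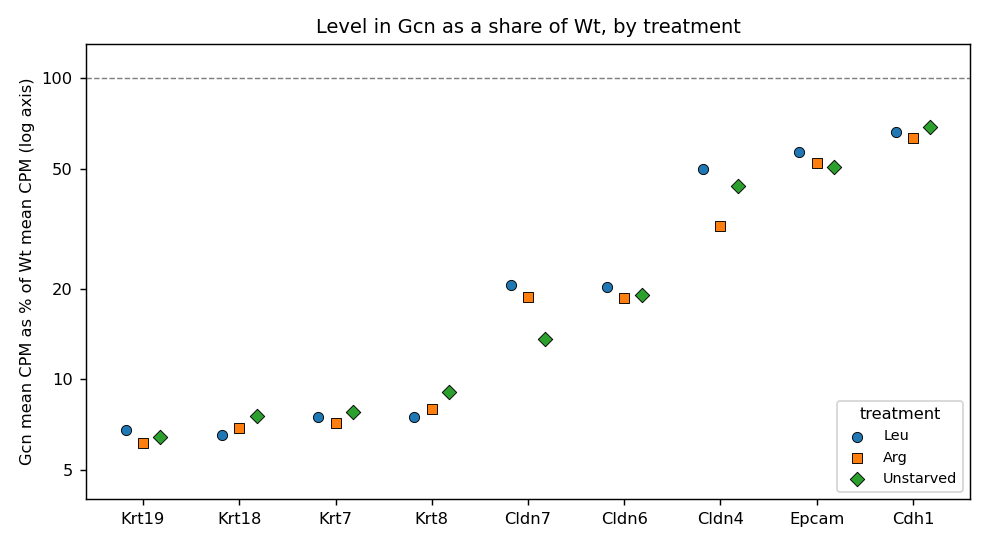
Mean CPM in Gcn as a percentage of the mean CPM in Wt (log axis, n = 3 libraries a group) for each gene, with 1 point per treatment; the dashed line is 100%. The 4 keratins lie between 6.12% and 9.06%, Cldn6 and Cldn7 between 13.6% and 20.5%, and Cldn4, Epcam and Cdh1 higher.

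In all 9 genes, every Gcn library was below every Wt library, over all treatments; 5.81% of the 16924 genes tested over all libraries had that pattern. In the fit of the unstarved groups, 9 of 9 genes were lower in Gcn and 0 higher, where 16.2% of all genes tested were called lower and 16.6% higher, and the median log2 difference of the 9 was -2.86 against 0.00 for all genes. Since these values bear on the choice of the genes, nothing is read from the counts or the calls. In bulk RNA, fewer cells that make a transcript and less of it per cell cannot be told apart. Without the Gcn libraries numbered 1, the log2 differences ran from -3.87 (Krt7) to -0.55 (Cdh1), where all libraries gave -3.95 (Krt19) to -0.54 (Cdh1).

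**Figure D2:**
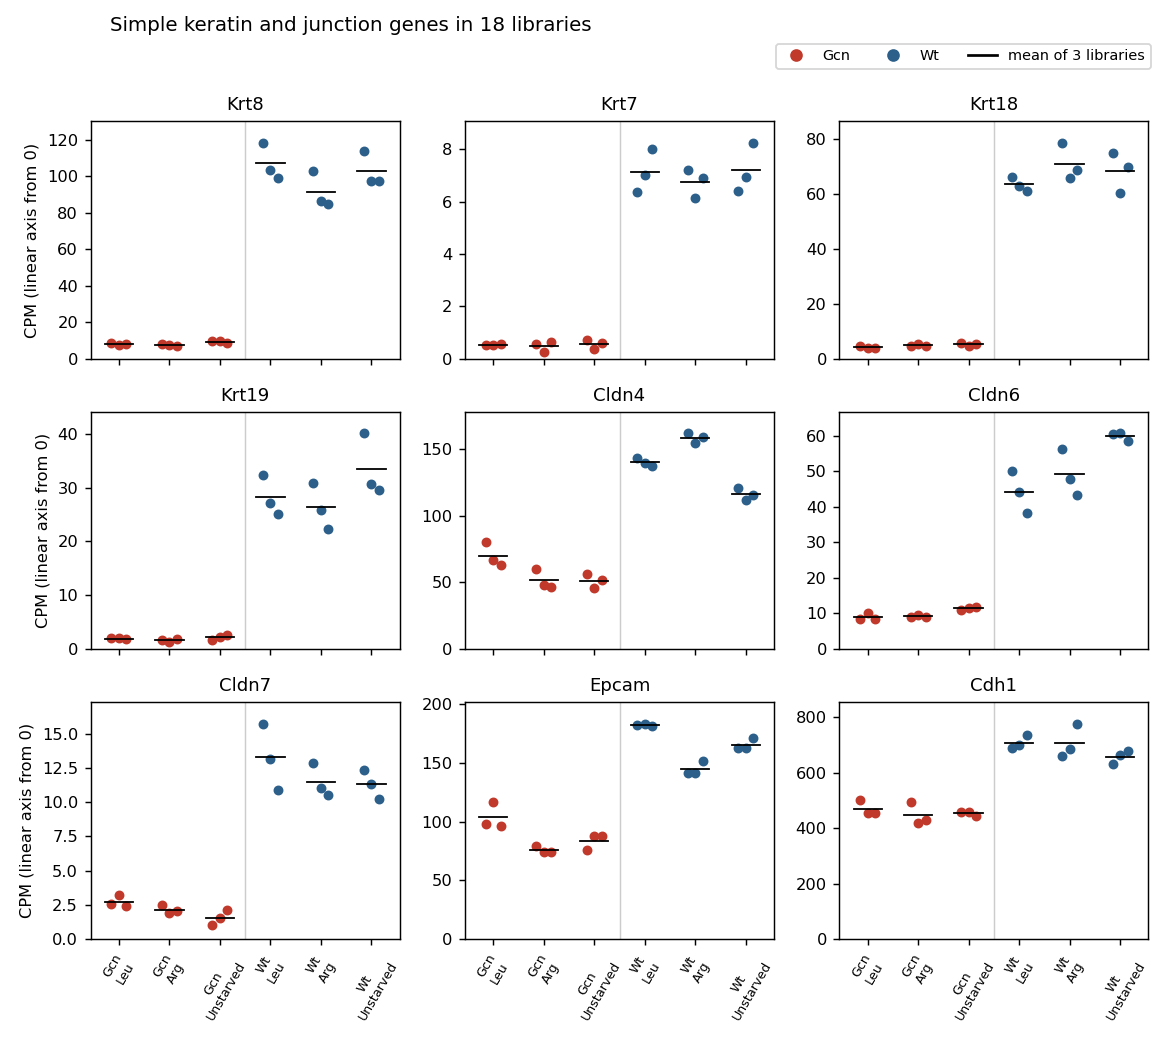
CPM of each gene in each of the 18 libraries (linear axes from 0; points are libraries, bars are means of 3), with Gcn groups on the left and Wt groups on the right. In each panel the highest Gcn point lies below the lowest Wt point, for example 9.63 against 84.6 CPM for Krt8 and 503 against 631 CPM for Cdh1.

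Per length of mRNA, the order of the genes differed between the genotypes. On the scale of CPM per kb, the levels in Gcn ran from Cdh1 (103), Epcam (43.1) and Cldn4 (31.7) through Cldn6 (6.06), Krt8 (4.18) and Krt18 (3.28) to Cldn7 (1.60), Krt19 (1.2) and Krt7 (0.128). In Wt they ran from Cdh1 (156), Epcam (80.6) and Cldn4 (76.3) through Krt8 (51.2), Krt18 (47.0), Cldn6 (31.5) and Krt19 (18.6) to Cldn7 (9) and Krt7 (1.72). Krt8 and Krt18 thus lay above Cldn6 in Wt and below it in Gcn, and Krt19 lay above Cldn7 in Wt and below it in Gcn. Neighbours in that order whose means lay closer than the larger of their SDs were Cldn7 and Krt19 in Gcn, and in Wt Krt8 and Krt18, and Epcam and Cldn4. Lengths were those of the longest principal transcript, 4.09 kb for Krt7 and 1.82 kb for Cldn4.

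**Figure D3:**
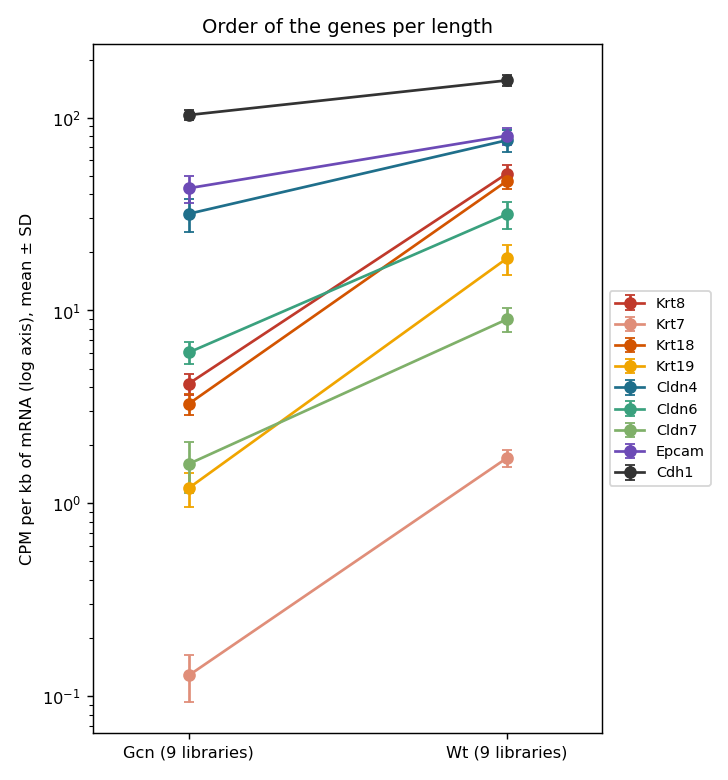
Level of each gene in CPM per kb of mRNA (log axis), as the mean ± SD over the 9 Gcn libraries and the 9 Wt libraries. The keratin lines are the steepest, the line of Cdh1 (103 in Gcn, 156 in Wt) is the flattest, and the Krt8 and Krt18 lines cross that of Cldn6.

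The ratio of the filament partners was higher in Gcn than in Wt within each treatment, without overlap. Krt8 over Krt18 per kb was 1.29 ± 0.18 in Gcn and 1.1 ± 0.14 in Wt (SD, n = 9 each), while both genes differed more than 10-fold between the genotypes. By treatment it was 1.33, 1.43 and 1.51 in Gcn Leu, 1.22, 0.986 and 1.08 in Gcn Arg, and 1.27, 1.5 and 1.24 in Gcn Unstarved. In Wt it was 1.31, 1.21 and 1.19 in Wt Leu, 0.960, 0.969 and 0.904 in Wt Arg, and 1.12, 1.19 and 1.02 in Wt Unstarved. The ratio was lowest under arginine starvation in both genotypes, and the 3 Arg values lay below the 3 Leu and the 3 Unstarved values of the same genotype; 3 libraries against 3 cannot give an exact permutation p below 0.10, so no test of the ratio is given. A processed pseudogene, Krt8-ps, matches Krt8 at 98.6% over 941 bp and held 0 to 26 counts a library, and Gm5200 matches Krt18 at 90.5% over 1267 bp and held 0 to 2, so a small part of the keratin reads may have been assigned elsewhere.

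**Figure D4:**
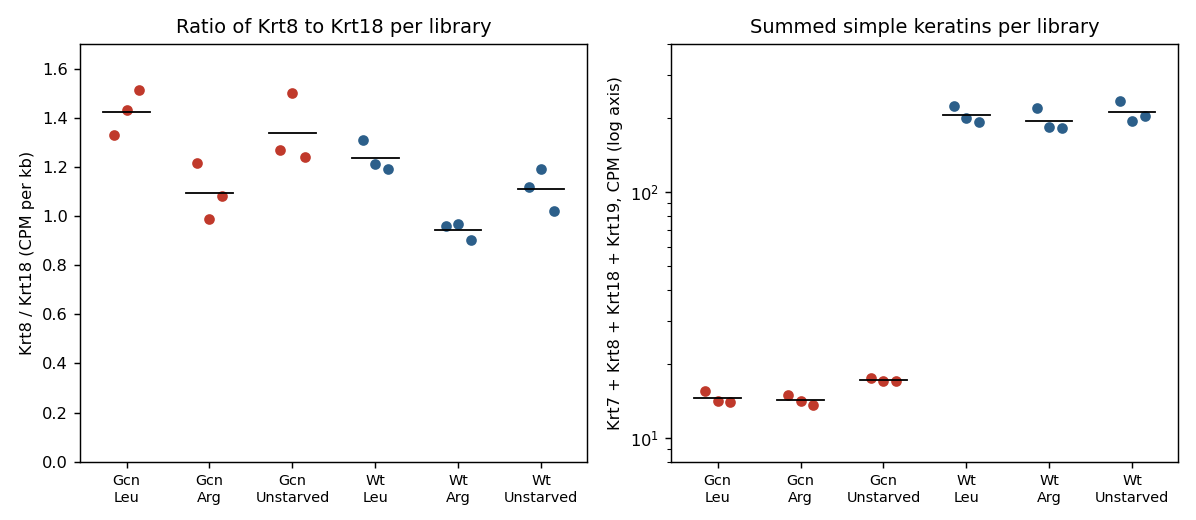
Left, ratio of Krt8 to Krt18 in CPM per kb; right, summed CPM of the 4 keratins (log axis); points are libraries and bars are means of 3, with Gcn groups left of Wt groups. The ratio lies between 0.904 and 1.51 in every library, while the sums lie between 13.7 and 17.5 CPM in Gcn and between 183 and 235 CPM in Wt.

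Genes outside the set are read against the 16.2% of all genes called lower and 16.6% called higher in unstarved Gcn cells. Of 9 tested keratins outside the set, 1 was lower and 0 higher in Gcn (Krt17, -0.37 ± 0.11 log2, adjusted p = 0.00992), with a median log2 difference of -0.06. Of 9 tested claudins outside the set, 2 were lower and 0 higher, with a median of -0.30; both counts are near the share of all genes. Both claudins lie beside a gene of the set, Cldn9 0.1 kb from Cldn6 and Cldn3 39.3 kb from Cldn4. Cldn9 averaged 0.548 ± 0.187 CPM in Gcn Unstarved and 1.62 ± 0.112 CPM in Wt Unstarved, and Cldn3 averaged 1.01 ± 0.279 CPM in Gcn Unstarved and 2.66 ± 0.242 CPM in Wt Unstarved (SD, n = 3 each), with log2 differences of -1.55 ± 0.29 (adjusted p = 0.000231) and -1.39 ± 0.22 (adjusted p = 3.71e-05). Each ± after a log2 value is a standard error, and each adjusted p is from edgeR's quasi-likelihood test with Benjamini-Hochberg adjustment over all genes tested.

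Of 11 tested genes of desmosomes, the junctions that anchor keratin filaments, and of plakins, 8 were lower and 0 higher in Gcn, with a median log2 difference of -0.58. Dsc2, a desmosomal cadherin, averaged 0.951 ± 0.119 CPM in Gcn Unstarved and 4.52 ± 0.516 CPM in Wt Unstarved (SD, n = 3 each; -2.26 ± 0.23 log2, adjusted p = 1.31e-07). Dsp, desmoplakin, which ties keratin to the junction, was at 16.9 ± 2.99 CPM in Gcn Unstarved and 32.1 ± 2.40 CPM in Wt Unstarved (-0.93 ± 0.25 log2, adjusted p = 0.00913), and the plakin Ppl was lower by -1.22 ± 0.16 log2. Of 30 genes of tight junctions and polarity, 16 were lower and 2 higher in Gcn, with a median of -0.28. Among them were Patj of the Crumbs complex (-1.5 ± 0.14), the angiomotin family gene Amotl2 (-1.39 ± 0.11) and the tight junction protein gene Marveld3 (-1.29 ± 0.19).

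Of 16 adherens junction genes other than Cdh1, 4 were lower and 1 higher in Gcn, with a median log2 difference of -0.13. Camsap3 (-0.64 ± 0.09), which caps microtubule ends at these junctions, Cdh2 (-0.56 ± 0.15), N-cadherin, and Nectin2 (-0.44 ± 0.09) were lower in Gcn. Of 14 genes for EpCAM's partners and for proteases that act on it, 7 were lower and 2 higher, with a median of -0.36. Prss8, the membrane protease prostasin, was at 2.78 ± 0.323 CPM in Gcn Unstarved and 10.9 ± 0.899 CPM in Wt Unstarved (SD, n = 3 each; -1.95 ± 0.13 log2, adjusted p = 2.47e-10).

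Regulators of epithelial genes showed both directions. Of 12 epithelial transcription and splicing regulators, 7 were lower and 1 higher in Gcn, with a median log2 difference of -0.58. Esrp1, a splicing factor of epithelial cells, averaged 18.03 ± 1.5 CPM in Gcn Unstarved and 47.7 ± 3.21 CPM in Wt Unstarved (SD, n = 3 each; -1.40 ± 0.09 log2, adjusted p = 1.42e-10), and Esrp2 (-0.88 ± 0.10) and Ovol1 (-1.21 ± 0.25) were lower too. Of 11 repressors of E-cadherin and mesenchymal genes, 3 were higher and 1 lower in Gcn, with a median of 0.00. Zeb1, a repressor of Cdh1, averaged 22.0 ± 2.5 CPM in Gcn Unstarved and 9.46 ± 0.282 CPM in Wt Unstarved (1.22 ± 0.12 log2, adjusted p = 1.24e-07), and Vim, vimentin, was at 226 ± 11.5 CPM in Gcn Unstarved and 152 ± 16.5 CPM in Wt Unstarved (0.57 ± 0.10 log2, adjusted p = 7.88e-05). Of 12 intermediate filament genes other than keratins, 6 were lower and 0 higher in Gcn, with a median of -0.25, among them Nefm (-2.53 ± 0.34), Nes (-2.51 ± 0.30) and the lamin gene Lmna (-1.20 ± 0.10).

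Markers of other cell types also differed between the genotypes in part, where 16.2% of all genes were called lower. Of 8 tested trophectoderm markers, 5 were lower and 0 higher in unstarved Gcn cells, with Cdx2 at -2.91 log2, and the summed level of all 12 was 26.3 to 37.1 CPM in Gcn and 36.3 to 45.0 CPM in Wt. The placental hormone genes Psg21 and Prl3d1 were at 0 in all 18 libraries. Of 10 tested primitive and visceral endoderm markers, 3 were lower, and the list summed to 248.6 to 322 CPM in Gcn and 305 to 390 CPM in Wt. Of 6 tested fibroblast markers, 3 were lower, all collagens, and the list summed to 9.30 to 14.0 CPM in Gcn and 19.3 to 28.7 CPM in Wt. Of 4 tested surface ectoderm and keratinocyte markers, 1 was lower (Sfn, -1.22 log2), a share near that of all genes, and the list summed to 36.2 to 71.6 CPM in Gcn and 68.6 to 152 CPM in Wt. The part of these cell types in the keratin and junction values was not tested.

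The gene whose pattern over the 6 group means was most like that of Krt8, Krt18 and Krt19 was Tagln, which encodes the actin-binding protein transgelin. Likeness was the root mean square difference of centred log2 group means over the 6 groups, among 10461 genes with a mean of at least 5 CPM. Tagln lay at 0.113 from Krt18, 0.154 from Krt19 and 0.173 from Krt8, and each keratin's next neighbours were the other 2 keratins, at 0.177 to 0.193. Tagln averaged 5.58, 5.34 and 5.39 CPM in Gcn Leu, Gcn Arg and Gcn Unstarved, and 75.6, 78.7 and 78.0 CPM in Wt Leu, Wt Arg and Wt Unstarved. The likeness is dominated by the step between the genotypes.

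Within a genotype, the group means lay closer together than between genotypes. Among the 6 group means, the highest and lowest differed by 0.67 (Cdh1) to 4.31 (Krt19) on the log2 scale, but within a genotype by at most 0.84 in Gcn (Cldn7) and 0.45 in Wt (Cldn4 and Cldn6). The fits below used the 9 libraries of 1 genotype, without the replicate number unless a block is named. By the check given at the end, the Gcn starvation comparisons, and leucine against arginine in both genotypes, count as paired by that number. Calls gained with the block in these are therefore named. Leu and Arg share their Unstarved libraries, so their values are set side by side and not counted as separate evidence. The genes were listed with these data in view, so the counts are read only against the share of all genes called.

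Cldn4 rose in 3 of the 4 starved groups and kept its calls in Wt under all 15 alternatives. It had 143.6, 140.1 and 137.8 CPM in Wt Leu, 162.2, 155.2 and 159.3 CPM in Wt Arg and 121.3, 112.3 and 116.0 CPM in Wt Unstarved, and the 3 ranges did not overlap. The changes were 0.27 ± 0.06 log2 with leucine starvation (adjusted p = 0.00186) and 0.45 ± 0.06 with arginine starvation (adjusted p = 9.47e-06). In Gcn it had 80.6, 66.6 and 63.4 CPM in Gcn Leu, 59.7, 48.4 and 46.2 CPM in Gcn Arg and 56.2, 46.0 and 51.5 CPM in Gcn Unstarved. Here it rose with leucine starvation (0.46 ± 0.11, adjusted p = 0.0102; 0.43, adjusted p = 0.00621, without the libraries numbered 1), but the call was lost without Gcn Unstarved 2 (adjusted p = 0.0794). With arginine starvation the change in Gcn was 0.02 ± 0.11 (adjusted p = 0.94), with an approximate 95% interval of -0.21 to 0.24. Intervals here and below take normal quantiles of the standard error, so they are narrower than the quasi-likelihood test would give.

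The interaction of Cldn4, its log2 change with arginine starvation in Gcn minus that in Wt, was -0.44 ± 0.14 and missed the threshold in the fit of all 18 libraries (adjusted p = 0.0951). DESeq2 gave an adjusted p of 0.0381 and the fit without the Gcn libraries numbered 1 an adjusted p of 0.0117. For leucine starvation the interaction was 0.18 ± 0.14 (adjusted p = 0.591). In both interactions, 0 of the 9 genes were called by edgeR's quasi-likelihood test, 1 in each had an unadjusted p under 0.05 (Cldn4 with arginine, Cldn7 with leucine), and DESeq2 called 1 with arginine and 0 with leucine, and limma-voom 0 in both. Of all genes tested, 0.62% were called higher and 1.68% lower in the arginine interaction, and 0.154% higher and 0.668% lower in the leucine interaction.

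Cldn6 fell where Cldn4 rose. It had 50.2, 44.1 and 38.4 CPM in Wt Leu, 56.4, 47.9 and 43.3 CPM in Wt Arg and 60.5, 60.8 and 58.7 CPM in Wt Unstarved, so each starved value lay under each unstarved one. The change was -0.44 ± 0.10 log2 in Wt Leu (adjusted p = 0.00457) and -0.28 ± 0.10 in Wt Arg (adjusted p = 0.0356). In Gcn it had 8.33, 10.0 and 8.52 CPM in Gcn Leu, 9.02, 9.41 and 8.94 CPM in Gcn Arg and 10.9, 11.4 and 11.9 CPM in Gcn Unstarved. It fell in Gcn Leu (-0.34 ± 0.11, adjusted p = 0.0451; 0.103 without the libraries numbered 1), and the change in Gcn Arg was -0.31 ± 0.12 (adjusted p = 0.0588). With the replicate number as a block, Cldn6 was also called in Gcn Arg (adjusted p = 0.01). The Cldn6 calls in Wt Arg and Gcn Leu were lost when single libraries were left out, with adjusted p up to 0.138 in Wt Arg and 0.136 in Gcn Leu.

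**Figure D5:**
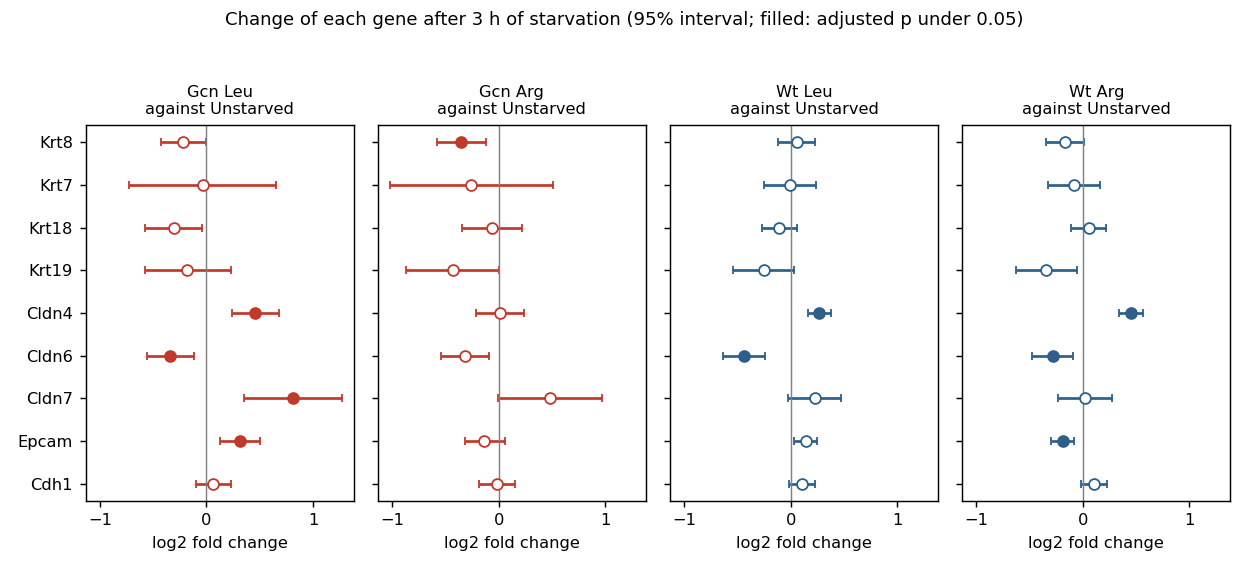
Log2 fold change of each gene against Unstarved cells of the same genotype. Points carry approximate 95% intervals from normal quantiles and are filled where the adjusted p was under 0.05. Cldn4 is to the right of 0 and filled in Gcn Leu, Wt Leu and Wt Arg, Cldn6 is to the left of 0 in all 4 panels, and the intervals of Krt7 in Gcn, from -1.02 to 0.51 with arginine starvation, are wide.

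Epcam was called in opposite directions in Wt Arg and Gcn Leu. It had 182.5, 183.5 and 181.8 CPM in Wt Leu, 141.8, 141.6 and 152.0 CPM in Wt Arg and 162.6, 162.4 and 171 CPM in Wt Unstarved, with Leu above and Arg below the unstarved range. It fell in Wt Arg (-0.19 ± 0.06 log2, adjusted p = 0.0125), and the change in Wt Leu was 0.14 ± 0.06 (adjusted p = 0.0647). The adjusted p of Epcam in Wt Arg was 0.0653 with all 18 libraries in the fit, 0.052 without Wt Arg 1 and 0.0541 without Wt Arg 2. In Gcn it had 98.2, 116.4 and 96.7 CPM in Gcn Leu, 79.4, 74.3 and 74.3 CPM in Gcn Arg and 75.6, 88.1 and 87.6 CPM in Gcn Unstarved. It rose in Gcn Leu (0.32 ± 0.10, adjusted p = 0.0305; 0.0529 without the libraries numbered 1 and up to 0.175 without 1 library), and the change in Gcn Arg was -0.13 ± 0.10 (adjusted p = 0.341).

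Set directly against arginine starvation, leucine starvation gave higher Epcam in both genotypes. The difference was 0.45 ± 0.10 log2 in Gcn (adjusted p = 0.0111; 0.00609 without the libraries numbered 1, 0.0557 without Gcn Arg 3 and 0.0689 without Gcn Leu 2) and 0.33 ± 0.06 in Wt (adjusted p = 0.00119). Cldn4 was higher with leucine than with arginine starvation in Gcn (0.44 ± 0.11, adjusted p = 0.0264; 0.0105 without the libraries numbered 1, up to 0.151 without 1 library). In Wt the Cldn4 difference had the other sign, -0.18 ± 0.06 (adjusted p = 0.0512). Same-numbered libraries deviated together in this comparison, and with the number as a block Cldn4 (-0.18, adjusted p = 0.00522), Krt8 (0.23, adjusted p = 0.00123) and Krt18 (-0.16, adjusted p = 0.0435) were called beside Epcam in Wt. Of the 9 genes, 1 was higher and 0 lower with leucine than with arginine starvation in Wt, where 5.25% of all genes were higher and 4.76% lower, and 2 were higher and 0 lower in Gcn, where 4.64% were higher and 3.88% lower.

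Cldn7 passed the test in Gcn Leu. It had 2.55, 3.20 and 2.40 CPM in Gcn Leu, 2.48, 1.91 and 2.07 CPM in Gcn Arg and 1.00, 1.52 and 2.10 CPM in Gcn Unstarved. The change was 0.81 ± 0.23 log2 in Gcn Leu (adjusted p = 0.0236; 0.0646 without the libraries numbered 1, up to 0.0971 without 1 library) and 0.48 ± 0.25 in Gcn Arg (adjusted p = 0.173). Counts behind these values ran from 23 to 99 a library. In Wt, Cldn7 was at 15.7, 13.2 and 10.9 CPM in Wt Leu, 12.9, 11 and 10.5 CPM in Wt Arg and 12.3, 11.3 and 10.3 CPM in Wt Unstarved, and the groups overlapped (adjusted p = 0.204 for Wt Leu and 0.925 for Wt Arg). The leucine interaction of Cldn7 was 0.57 ± 0.26 (adjusted p = 0.348).

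Among the keratins, the fits without the replicate number made 1 starvation call, for Krt8 in Gcn Arg. With the number as a block that call was kept (adjusted p = 0.00607 by edgeR's quasi-likelihood test). Krt8 fell in Gcn Arg, at 7.87, 7.18 and 6.68 CPM against 9.63, 9.62 and 8.70 CPM in Gcn Unstarved (-0.35 ± 0.12 log2, adjusted p = 0.0366). The call without a block was lost with DESeq2 (adjusted p = 0.0514) and without the libraries numbered 1 (adjusted p = 0.063). It was also lost without any one of Gcn Arg 2, Gcn Arg 3, Gcn Unstarved 1 and Gcn Unstarved 2, with adjusted p up to 0.127. In Gcn Leu Krt8 was at 8.4, 7.69 and 7.87 CPM (-0.22 ± 0.11, adjusted p = 0.198; 0.29 without the libraries numbered 1). Krt18 was at 4.64, 3.94 and 3.82 CPM in Gcn Leu against 5.58, 4.70 and 5.15 CPM in Gcn Unstarved, with the ranges just apart (-0.31 ± 0.14, adjusted p = 0.132; 0.183 without the libraries numbered 1), and was called with the replicate number as a block (-0.31, adjusted p = 0.0429).

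Krt19 had 32.4, 27.1 and 25.1 CPM in Wt Leu, 30.8, 25.9 and 22.4 CPM in Wt Arg and 40.2, 30.8 and 29.5 CPM in Wt Unstarved. Its change was -0.26 ± 0.15 log2 in Wt Leu and -0.35 ± 0.14 in Wt Arg (adjusted p = 0.218 in Wt Leu and 0.0764 in Wt Arg), and the ranges overlapped. In Wt Arg, DESeq2 (adjusted p = 0.0258), limma-voom (0.0439) and edgeR with no filter on low counts (0.000461) did call Krt19 lower, and 6 of 15 alternatives called it in all. Krt7 had log2 changes of -0.01 ± 0.13 in Wt Leu and -0.08 ± 0.12 in Wt Arg, and no call in Gcn. Cdh1 did not pass the test in any starved group: its changes were 0.06 ± 0.09 in Gcn Leu, -0.01 ± 0.09 in Gcn Arg, 0.10 ± 0.06 in Wt Leu and 0.10 ± 0.06 in Wt Arg, with 95% intervals that stayed within -0.18 and 0.23.

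By count, in the fits without the replicate number, 3 of the 9 genes were higher and 1 lower in Gcn Leu. Of all genes tested there, 11.7% were called higher and 10% lower. In Gcn Arg 0 were higher and 1 lower, with 14.3% and 13.7% of all genes. In Wt Leu 1 was higher and 1 lower, with 15.5% and 14.1%, and in Wt Arg 1 was higher and 2 lower, with 20.9% and 20%. The median log2 changes of the 9 were -0.04 in Gcn Leu, -0.13 in Gcn Arg, 0.05 in Wt Leu and -0.09 in Wt Arg, and those of all genes lay between -0.01 and 0.01. Counts of 0 to 2 among 9 genes are close to these shares. The 3 higher in Gcn Leu are above theirs, but without the libraries numbered 1 the Gcn Leu calls came to 1, Cldn4, and the Gcn Arg calls to 0. The log2 changes in Gcn Leu were then 0.294 (Epcam), 0.638 (Cldn7) and -0.315 (Cldn6), with the signs kept. In that fit, the smaller number of libraries and the absence of those numbered 1 cannot be told apart. Calls of Cldn4, Cldn6, Cldn7 and Epcam in Gcn Leu and of Krt8 in Gcn Arg were kept with the replicate number as a block. The block also called Cldn6 lower in Gcn Arg and Krt18 lower in Gcn Leu (adjusted p = 0.01 and 0.0429 by edgeR's test).

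Of the tight junction and polarity genes, the 2 with the largest called changes in each starved group moved in opposite directions. Crb3, the Crumbs protein of mammalian epithelia, rose by 1.1 ± 0.11 log2 in Gcn Leu, 1.32 ± 0.12 in Gcn Arg, 0.93 ± 0.11 in Wt Leu and 1.25 ± 0.11 in Wt Arg, with means of 14.6, 16.9 and 6.84 CPM in Gcn Leu, Gcn Arg and Gcn Unstarved. Pard6g, of the Par polarity complex, fell to 10.98 and 9.34 CPM in Gcn Leu and Gcn Arg, against 19.5 CPM in Gcn Unstarved, and to 17.7 and 12.2 CPM in Wt Leu and Wt Arg, against 24.9 CPM in Wt Unstarved. Of the 30 tight junction and polarity genes, 3 rose and 2 fell in Gcn Leu, 3 and 4 in Gcn Arg, 4 and 2 in Wt Leu, and 5 and 7 in Wt Arg, which is near or below the shares of all genes called in those groups.

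Among keratins outside the set, calls after starvation were decreases. Of 6 tested in Gcn, 2 fell in Gcn Leu and 3 in Gcn Arg, and of 9 tested in Wt, 1 fell in Wt Leu and 4 in Wt Arg, with 0 rising in any group. Of all genes, 11.7% were called higher and 10% lower in Gcn Leu, and 14.3% and 13.7% in Gcn Arg. The shares were 15.5% and 14.1% in Wt Leu, and 20.9% and 20% in Wt Arg. The Wt Leu count is near its share. Krt17, a type I keratin of stressed and embryonic epithelia, averaged 11.4 ± 1.45, 7.82 ± 1.22 and 21.2 ± 0.375 CPM in Gcn Leu, Gcn Arg and Gcn Unstarved, and 21.8 ± 1.32, 16.8 ± 1.45 and 27.4 ± 2.12 CPM in Wt Leu, Wt Arg and Wt Unstarved (SD, n = 3 each). Its log2 changes were -0.90 ± 0.12, -1.42 ± 0.13, -0.33 ± 0.09 and -0.71 ± 0.09 in Gcn Leu, Gcn Arg, Wt Leu and Wt Arg, with adjusted p of 0.000198, 4.22e-06, 0.0092 and 9.49e-06. Of 7 tested claudins outside the set, 1 rose and 2 fell in Gcn Leu, and 1 rose and 1 fell in Gcn Arg. Of 8 tested in Wt, 0 rose and 3 fell in each starved group. Cldn3, the neighbour of Cldn4, rose in Gcn Leu (0.78 ± 0.25, adjusted p = 0.0409), at 1.75 ± 0.422 CPM against 1.01 ± 0.279 CPM in Gcn Unstarved. Cldn12 fell in Gcn Leu (-0.40 ± 0.09, adjusted p = 0.0047), at 30.5 ± 0.758 CPM against 40.4 ± 2.85 CPM in Gcn Unstarved.

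Most calls among desmosomal and plakin genes were decreases. Of 11 tested, 4 fell and 0 rose in Gcn Leu, 3 and 0 in Gcn Arg, 4 and 1 in Wt Leu, and 6 and 1 in Wt Arg. Of all genes, 10%, 13.7%, 14.1% and 20% were called lower in these groups, in the same order. The shares called higher were 11.7%, 14.3%, 15.5% and 20.9%. Eppk1, epiplakin, which binds keratin filaments, fell in all 4 groups, with log2 changes of -1.38 ± 0.15 in Gcn Leu, -1.47 ± 0.16 in Gcn Arg, -0.78 ± 0.14 in Wt Leu and -0.93 ± 0.14 in Wt Arg. Dsg2, a desmosomal cadherin, rose in Wt Leu (0.50 ± 0.07, adjusted p = 6.15e-05) and Wt Arg (0.62 ± 0.07, adjusted p = 3.21e-06).

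Of the 16 adherens junction genes, Nectin4 fell in Wt Leu (-1.21 ± 0.21), Wt Arg (-1.33 ± 0.21) and Gcn Arg (-0.84 ± 0.23), and Cdh3, P-cadherin, rose in Gcn Leu (0.56 ± 0.12, adjusted p = 0.0048). Among the partners and proteases of EpCAM, Prss8 rose in all 4 groups, to 5.24 ± 0.492 and 5.80 ± 0.808 CPM in Gcn Leu and Gcn Arg, against 2.78 ± 0.323 CPM in Gcn Unstarved, and to 16.8 ± 1.80 and 17.5 ± 0.0532 CPM in Wt Leu and Wt Arg, against 10.9 ± 0.899 CPM in Wt Unstarved. Bace1, a secretase that can cleave EpCAM, also rose in all 4, by 0.35 ± 0.08 log2 in Wt Leu to 0.87 ± 0.10 in Gcn Arg. Zeb2, a repressor of Cdh1, rose in all 4 as well, by 1.04 ± 0.18 in Gcn Leu, 1.27 ± 0.19 in Gcn Arg, 0.90 ± 0.16 in Wt Leu and 1.16 ± 0.15 in Wt Arg, with a highest group mean of 4.44 CPM, in Wt Arg. Of 9 tested repressors and mesenchymal genes, 4 rose and 1 fell in Gcn Leu (all genes 11.7% and 10%), and 4 and 2 in Gcn Arg (14.3% and 13.7%). Of 11 in Wt, 5 rose and 1 fell in Wt Leu (15.5% and 14.1%), and 4 and 2 in Wt Arg (20.9% and 20%). Twist1 fell in Wt Leu (-0.74 ± 0.16) and Wt Arg (-0.85 ± 0.15), Snai3 in Gcn Arg (-0.87 ± 0.19) and Vim in Gcn Leu (-0.56 ± 0.09).

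Among 12 tested epithelial regulators, 2 were called higher and 1 lower with leucine than with arginine starvation in Gcn, and 2 and 2 in Wt. Of all genes, 4.64% were higher and 3.88% lower in Gcn, and 5.25% and 4.76% in Wt. Klf5, a Krüppel-like factor of epithelia and stem cells, rose with arginine starvation (0.68 ± 0.09 in Gcn Arg, 0.88 ± 0.07 in Wt Arg) and was lower with leucine than with arginine starvation in both genotypes (-0.49 ± 0.09 in Gcn, -0.45 ± 0.07 in Wt). Tfap2c, an AP-2 factor of trophectoderm and germ cells, was higher with leucine than with arginine starvation (0.56 ± 0.10 in Gcn, adjusted p = 0.00397, and 0.43 ± 0.08 in Wt, adjusted p = 0.0037). Grhl2, a grainyhead factor that binds epithelial promoters, was at 29.4 ± 4.28 and 39.6 ± 4.75 CPM in Gcn Leu and Gcn Arg, against 25.1 ± 4.43 CPM in Gcn Unstarved, and rose in Gcn Arg (0.66 ± 0.15, adjusted p = 0.00561). In Wt, Grhl2 was at 47.5 ± 5.34 and 63.9 ± 5.83 CPM in Wt Leu and Wt Arg, against 40.6 ± 3.34 CPM in Wt Unstarved, rose in Wt Arg (0.66 ± 0.09, adjusted p = 1.81e-05) and was lower with leucine than with arginine starvation (-0.43 ± 0.09, adjusted p = 0.00467).

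Markers of other cell types were called in both directions after starvation. The 8 surface ectoderm and keratinocyte markers summed to 39.1 to 42.1 CPM in Gcn Leu and 36.2 to 41.7 CPM in Gcn Arg, against 62.2 to 71.6 CPM in Gcn Unstarved, and to 70.1 to 85.4 CPM in Wt Leu and 68.6 to 86.7 CPM in Wt Arg, against 118.4 to 152 CPM in Wt Unstarved. Most of that sum was Sfn, stratifin, a 14-3-3 protein of epithelia, which averaged 27.1, 26.8 and 52.5 CPM in Gcn Leu, Gcn Arg and Gcn Unstarved. Sfn fell in all 4 groups, with log2 changes of -0.95 ± 0.11 in Gcn Leu, -0.97 ± 0.11 in Gcn Arg, -0.93 ± 0.12 in Wt Leu and -0.90 ± 0.12 in Wt Arg. Of its list, 1 of 3 tested markers was lower and 0 higher in each starved Gcn group. Of 4 tested in Wt, 1 was higher and 1 lower in Wt Leu, and 1 was higher and 2 lower in Wt Arg. Of the trophectoderm markers, 0 were higher in any group, and 2 of 7 were lower in Gcn Leu and 1 of 7 in Gcn Arg. In Wt Leu and in Wt Arg, 2 of 8 were lower. Of 10 endoderm markers, 1 was higher and 1 lower in Gcn Leu, 3 and 1 in Gcn Arg, and 1 and 0 in each starved Wt group. Of 6 fibroblast markers, 1 was higher in Wt Leu. Of all genes, 11.7% were higher and 10% lower in Gcn Leu, and 14.3% and 13.7% in Gcn Arg. The shares were 15.5% and 14.1% in Wt Leu, and 20.9% and 20% in Wt Arg. The part of these cell types in the values above was not tested.

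Without the Gcn libraries numbered 1, 20 of the 24 list genes that the naming rule gave were still called in Gcn Leu, 23 of 24 in Gcn Arg and 9 of 15 in Gcn with leucine against arginine starvation, and 0 changed sign. Cldn3 was among those lost in Gcn Leu (0.69 ± 0.31, adjusted p = 0.141).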

How the data were processed

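RNA was measured by poly(A) sequencing of 18 libraries. The authors deposited raw whole-number counts per Ensembl gene, 1 table per genotype; per the submitters' processing notes the build was GRCm38 and the tools named are STAR 2.7.4a, HTSeq, FastQC 0.11.7, bcl2fastq, R 4.0.3, DESeq2 and DESeq 1.30.1. For annotation release and strand setting, no value is given here by any source used, so reads of antisense genes may not be separated. The normalized tables were not used. Of 55471 identifiers, 55144 matched GENCODE vM21.

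The quasi-likelihood fits were made in R 4.3.3 with edgeR 4.0.16 and limma 3.58.1, using filterByExpr, trimmed mean of M values scaling, and the quasi-likelihood test with Benjamini-Hochberg adjustment over all genes of a fit, called at 0.05. Starvation comparisons were fitted within a genotype (9 libraries; 16369 genes tested in Gcn and 16140 in Wt); the genotype comparison and interactions (the change in Gcn minus that in Wt) used all 18 (16924 genes). The genes, lists and tests were chosen with earlier results of these data known. List genes named are among up to 3 called genes per list and comparison with the largest change and a mean of at least 1 CPM over the libraries of the fit. Nearest genes were named for the 3 of the 9 genes that spread most over group means. The 95% intervals are a normal approximation from the standard error and are narrower than the quasi-likelihood test would give. Intervals and counts reflect counting and spread in these libraries only.

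The Gcn starvation comparisons and leucine against arginine in both genotypes count as paired: deviations of same-numbered libraries from their group means correlated above 0.1 in every pair (lowest 0.166 in Wt and 0.18 in Gcn). In Wt Arg, Wt Leu and between the genotypes they did not (lowest 0.096, 0.049 and -0.159). Values in the text are from fits without the replicate number unless a block is named. With the number as a block, edgeR's test gave Gcn Leu adjusted p of 1.6e-05 (Cldn4), 0.00431 (Cldn6), 0.00582 (Cldn7) and 0.00144 (Epcam). Krt8 in Gcn Arg had 0.00607. For leucine against arginine in Gcn, the values were 5.05e-05 (Cldn4) and 0.000171 (Epcam). Scripts were tested on simulated counts. Alternatives were other scalings, no filter, DESeq2 1.42.0, limma-voom, other sets of libraries, the replicate block, a GC correction, and each library left out.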

Additional observations from a re-analysis of the deposited data

Results flagged for a closer look

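Of the surrounding lists, 5 genes had a called difference in starvation response between the genotypes or moved in opposite directions. Of the 9 genes, edgeR's quasi-likelihood test called 0 such interactions; Cldn4 with arginine had adjusted p = 0.0951, against 0.0381 by DESeq2, 0.0117 without the Gcn libraries numbered 1 and 0.000227 with the replicate number as a block. Cd9, a tetraspanin that associates with EpCAM and claudins, had a more negative change with arginine starvation in Gcn than in Wt. The interaction, the change in Gcn minus that in Wt, was -0.45 ± 0.10 log2 (adjusted p = 0.0143). It averaged 125.5 ± 7.77 CPM in Gcn Arg and 224 ± 13.7 CPM in Gcn Unstarved, and 222 ± 6.53 CPM in Wt Arg and 290.3 ± 14.3 CPM in Wt Unstarved (SD, n = 3 each). Krt17 had an arginine interaction of -0.72 ± 0.16 (adjusted p = 0.0154), and was also the 1 keratin outside the set that was lower in unstarved Gcn cells.

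Plec, plectin, which links intermediate filaments to junctions, had more negative changes in Gcn with both amino acids, with interactions of -0.48 ± 0.13 for arginine (adjusted p = 0.0438) and -0.58 ± 0.12 for leucine (adjusted p = 0.0237). Its means were 42.6 ± 1.12, 40.1 ± 2.08 and 73.7 ± 3.06 CPM in Gcn Leu, Gcn Arg and Gcn Unstarved and 84.6 ± 5.57, 74.4 ± 4.54 and 97.9 ± 14.4 CPM in Wt Leu, Wt Arg and Wt Unstarved. Llgl2, a basolateral polarity gene, had a leucine interaction of -0.70 ± 0.13 (adjusted p = 0.00477), with 51.0 ± 6.55 CPM in Gcn Leu against 85.2 ± 6.64 CPM in Gcn Unstarved, and 124.9 ± 4.0 CPM in Wt Leu against 128.4 ± 5.35 CPM in Wt Unstarved.

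Tfap2c moved in opposite directions in every library with leucine starvation: it had 54.3, 49.7 and 45.5 CPM in Gcn Leu against 41.4, 39.4 and 36.5 CPM in Gcn Unstarved, and 37.2, 35.7 and 37.4 CPM in Wt Leu against 45.6, 42.2 and 38.5 CPM in Wt Unstarved. The interaction was 0.55 ± 0.14 log2 and missed the threshold (adjusted p = 0.0624). Interactions used all 18 libraries; the 5 called ones of Cd9, Krt17, Plec and Llgl2 were also called without the Gcn libraries numbered 1, with adjusted p of 0.00163 to 0.0391.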

How the results depend on the processing

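Over all comparisons, 1349 values of the 9 genes were recomputed: 1260 stayed on the same side of the threshold, 45 lost a call, 44 gained one and 0 called values reversed. Of the 1260, 65 changed sign between values called in neither fit. Counts of called genes moved as follows. With the replicate block they were 5 in Wt Arg (3 without it), 5 in Wt Leu (2), 2 in Gcn Arg (1), 4 in Wt leucine against arginine (1), 1 in the arginine interaction (0) and 1 in the leucine interaction (0), and adding a GC correction to the replicate block gave 5, 5, 2, 5, 2 and 1. In Wt Arg, Wt Leu and the interactions the numbers do not pair the libraries by the check used. In Gcn Arg the call was 0 with DESeq2, library size only, no filter, or only the groups compared, and 2 with all 18 libraries fitted. Scaling by library size only gave a median over all genes of 0.11 log2 in Gcn Arg, against -0.01 as reported. In Wt leucine against arginine, DESeq2, its size factors, library size only and no filter each gave 2, and in Gcn leucine against arginine library size only and only the groups compared gave 1. In the arginine interaction DESeq2 and no filter gave 1. Without the Gcn libraries numbered 1 the counts were 0 in Gcn Arg, 1 in Gcn Leu and 1 in the arginine interaction. Leaving out each library in turn gave ranges of 1 to 4 in Wt Arg, 0 to 1 in Gcn Arg, 0 to 3 in Gcn Leu, 1 to 2 in Wt leucine against arginine, 0 to 2 in Gcn leucine against arginine and 0 to 1 in the arginine interaction. The cause of these moves was not tested. Of 1350 list counts recomputed, 228 moved by over 1.5 times, 8 of 135 between the unstarved genotypes. With a smallest mean of 1 CPM, 2 of Krt19's 3 nearest genes and 1 each of those of Krt18 and Krt8 were shared. Depth limits Krt7 in Gcn, at 6 to 22 counts a library, and DESeq2 gave it no adjusted p in Gcn leucine against arginine.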
